A study of Mus musculus with 22 samples.

Results

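The genes examined here encode the mouse major histocompatibility complex (MHC) class I antigen presentation pathway. They were taken by name as 10 rows of the count table, which holds 30170 genes: H2-K1, H2-D1, B2m, Tap1, Tap2, Tapbp, Psmb8, Psmb9, Psmb10 and Nlrc5. All 10 were found, and all 10 are among the 14520 genes that passed the filter on low counts. RNA was sequenced from C3H 10T1/2 cells (10T), a mouse mesenchymal stem cell line that can be turned into adipocytes, expressing wild-type DNMT3A (WT), DNMT3A with the W330R substitution, or DNMT3A with both W330R and R181E (W330R-R181E, the double mutant). DNMT3A is a de novo DNA methyltransferase. WT and W330R cells were sampled undifferentiated and at days 2, 4 and 6 of adipocyte differentiation. Double mutant cells were sampled at days 2, 4 and 6, so no undifferentiated double mutant was analysed here. Differentiated cells of all 3 genotypes received isobutylmethylxanthine, dexamethasone, insulin and troglitazone, followed by insulin alone. Each of the 11 conditions has 2 libraries, 22 in all. The labels state neither whether the paired libraries came from separate cultures nor whether each genotype is a clone or a pool, so p-values measure only the spread between these libraries. Because whole cultures were sequenced, fewer cells of a type and less RNA per cell cannot be told apart.

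MHC class I molecules display fragments of intracellular proteins at the cell surface, where CD8+ T cells read them. The immunoproteasome subunits Psmb8, Psmb9 and Psmb10 replace the catalytic subunits Psmb5, Psmb6 and Psmb7 and cut such fragments. Tap1 and Tap2 form the transporter that carries them into the endoplasmic reticulum, and tapasin (Tapbp) holds the transporter beside the heavy chain (H2-K1 or H2-D1), which folds with β2-microglobulin (B2m). Nlrc5 is the transactivator of class I promoters, and interferon raises the whole pathway in many cell types.

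Heavy chain and B2m promoters are known for a shared set of short elements, and these are shown because H2-K1, H2-D1 and B2m carried the main difference described below. RefSeq promoter sequence (assembly GRCm38.p6) matched 8 members; Tap2 and Nlrc5 had no entry. Capitals mark 4 motifs, searched on both strands: a κB element (GGGGATTCC), an IRF half-site pair (AANNGAAA, or TTTCNNTT read on the other strand), a CRE-like element (TGACG) and a Y box (ATTGG). The IRF pattern is loose. The sequences read from 5′ to 3′ along the gene's strand:
H2-K1, chr17:34000348-34000547, minus strand, upstream of the start: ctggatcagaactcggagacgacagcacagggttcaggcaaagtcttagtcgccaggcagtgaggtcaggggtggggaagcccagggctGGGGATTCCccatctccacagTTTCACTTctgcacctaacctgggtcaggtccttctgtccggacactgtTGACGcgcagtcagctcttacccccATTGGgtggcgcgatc
H2-D1, chr17:35262923-35262951, plus strand, κB element to IRF half-site pair: GGGGATTCCccatctcctcagTTTCACTT
H2-D1, chr17:35262993-35263022, plus strand, CRE-like element to Y box: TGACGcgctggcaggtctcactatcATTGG
B2m, chr2:122147487-122147686, plus strand, upstream of the start: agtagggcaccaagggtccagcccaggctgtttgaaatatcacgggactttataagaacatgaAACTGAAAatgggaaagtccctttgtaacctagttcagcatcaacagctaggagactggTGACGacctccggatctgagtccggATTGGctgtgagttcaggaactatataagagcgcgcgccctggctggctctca

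H2-K1 and H2-D1 held all 4 motifs within 250 bases upstream of the start, and B2m held 3, lacking the κB letters. From the κB element to the Y box, 89 of 100 bases were identical between H2-K1 and H2-D1. Of 32851 promoters with this window, 21.3% held the IRF pattern, 0.213% the κB element, 17.8% the CRE-like element and 33.8% the Y box. All 4 stood together in 5 windows (0.0152%), which belong to H2-K1 at 2 start sites, H2-D1, H2-Q7 and Kat5. The κB letters are a single exact spelling, the one present in H2-K1 and H2-D1. Rarity of the full set follows in part from that choice and is no test of these promoters. Other κB spellings were not searched, in B2m or elsewhere. The CRE-like element followed by the Y box was present in H2-K1, H2-D1 and B2m and in 0.721% of all windows. Tap1 and Psmb9 lie head to head with 225 bases between their starts. They share the same CRE-like element and the same Y box in that stretch, which do not stand in that arrangement. Tapbp held only the Y box, and no motif was matched in Psmb8 or Psmb10. A match is a match of letters, and no binding or methylation was measured in these libraries. All promoter sequence here is that of the C57BL/6 reference, from which the C3H 10T1/2 cells can differ. CpG dinucleotides in the RefSeq windows numbered 9 for H2-K1, 14 for H2-D1, 8 for B2m, 14 for Tap1, 10 for Tapbp, 10 for Psmb8, 12 for Psmb9 and 3 for Psmb10, against a median of 6 over all promoters.

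Total estimated counts per library ran from 8859501 to 47453908 with a median of 19355792. Levels are given as normalised CPM (counts scaled to a common library size), replicate 1 before replicate 2, and differences as log2 fold changes ± standard error from edgeR's quasi-likelihood test with Benjamini-Hochberg adjustment over 14520 genes, where a gene is called at an adjusted p under 0.05. Column headings of the undifferentiated libraries follow another naming pattern than those of days 2 to 6. The headings do not say whether these libraries were prepared or sequenced separately. The step into differentiation cannot be told apart from such a difference. Dnmt3a itself lay between 316 and 347 CPM in undifferentiated cells and between 68.5 and 322 CPM afterwards. At day 2 WT held 175 and 322 CPM, W330R 88.4 and 142 CPM and the double mutant 77.3 and 148 CPM. At day 4 these were 105 and 160, 87.4 and 137, and 68.5 and 121 CPM. At day 6 they were 111 and 149, 122 and 140, and 72.8 and 121 CPM. The part of these levels in the class I result was not tested. The files do not separate transgene from endogenous transcripts, and so these values do not check the labels. C3H mice carry another MHC haplotype (H2-k) than the C57BL/6 reference (H2-b), and class I genes are paralogs: 20.3% of the 31-base words of H2-K1 transcripts and 27.6% of those of H2-D1 also occur in other genes, so how reads were divided among them is uncertain. The corresponding share was 1.48% for Tap1, 1.44% for Tap2, 5.54% for Tapbp and 0% for B2m, Psmb8, Psmb9, Psmb10 and Nlrc5. Tap1 overlaps Psmb9 on the opposite strand, Tapbp overlaps Zbtb22 on its own strand, and Tap2, Psmb8 and Nlrc5 overlap transcripts on the opposite strand.

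One library stood apart. Replicate 1 of the double mutant at day 6 had the highest level of all 22 libraries for 7 of the 10 members (H2-K1, Tap1, Tap2, Tapbp, Psmb8, Psmb9 and Psmb10). Its 25 listed interferon-stimulated genes summed to 2922 CPM against 229 CPM in replicate 2 of the same condition, a 12.7-fold gap. The averaged double mutant comparisons, H2-K1 at day 6 and the counts over gene lists are therefore given with and without it, the latter a choice made after seeing the data. A second unevenness ran through the differentiated libraries. Replicate 2 exceeded replicate 1 for H2-K1 by 3.27-, 2.9- and 2.4-fold in WT at days 2, 4 and 6 and by 3.16- and 3.14-fold in the double mutant at days 2 and 4, whereas the ratio in W330R was 1.02, 0.755 and 1.17.

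The first comparison asked whether W330R cells differ from WT cells across the 4 stages they share. Heavy chains, B2m, the peptide transporter and tapasin were higher in W330R. Of the 10 members, 6 were called, all higher in W330R, where 22.9% of all tested genes were called in either direction. The members' median log2 fold change was 0.96 (0.84 with genes at the counting floor set to their bound), against 0.011 over all tested genes. H2-K1, a classical heavy chain, was 3.52-fold higher (log2 1.82 ± 0.37, adjusted p = 0.00387). H2-D1, the other classical heavy chain, was 3.62-fold higher (log2 1.86 ± 0.29, adjusted p = 0.00088). B2m, the invariant light chain, was 1.66-fold higher (log2 0.73 ± 0.19, adjusted p = 0.0128). Leaving out undifferentiated cells, a choice made after seeing the data, brought these differences to 5.65-fold for H2-K1, 5.54-fold for H2-D1 and 2.00-fold for B2m over days 2 to 6, and 7 members were then called where 29% of genes were.

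**Figure D1:**
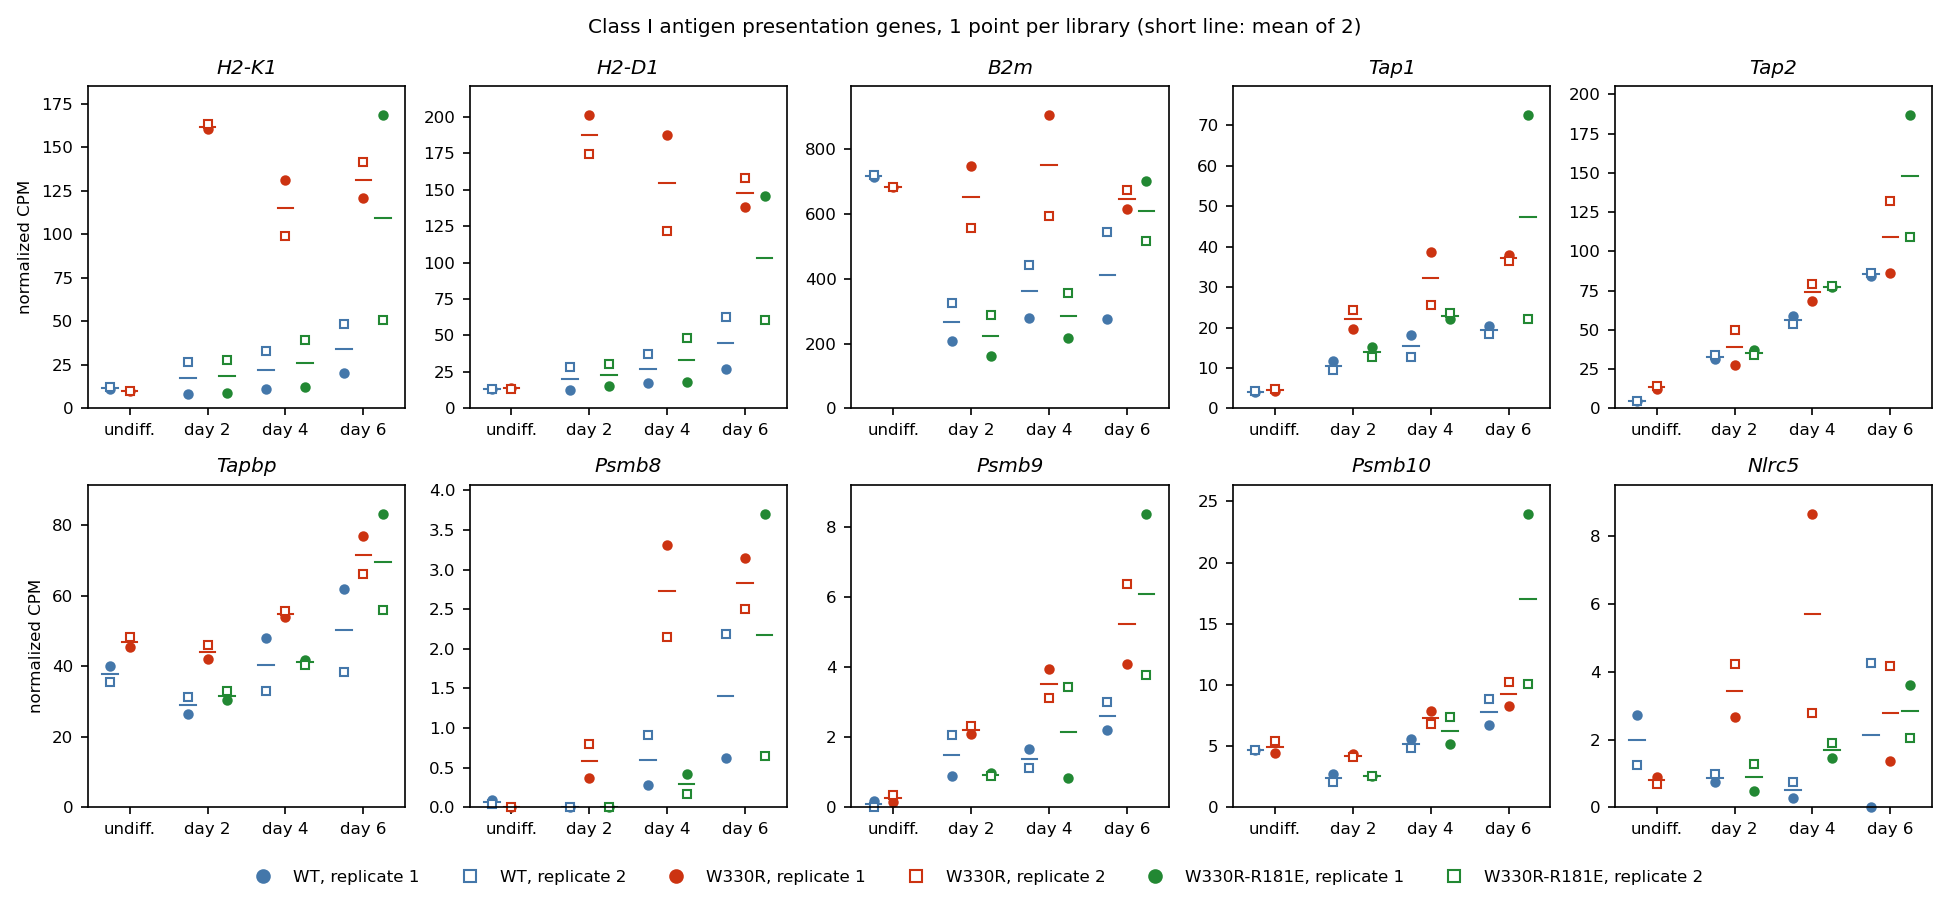
Normalised CPM of the 10 members in each of the 22 libraries (points; circles are replicate 1, squares replicate 2, and a short line their mean) by stage, with 1 panel per gene and 1 colour per genotype. For H2-K1, the 6 W330R libraries of days 2 to 6 sit between 99.1 and 163 CPM, above the highest WT library at 48.5 CPM.

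Before differentiation the heavy chains were low and level between genotypes. H2-K1 stood at 11.4 and 12.2 CPM in WT and 10.2 and 9.83 CPM in W330R. H2-D1 stood at 13.6 and 13.6 CPM in WT and 13.7 and 13.7 CPM in W330R. For H2-K1 the difference between genotypes at this stage was a log2 of −0.23 ± 0.78 and for H2-D1 0.01 ± 0.60, neither called. B2m was at 715 and 722 CPM in WT and 685 and 683 CPM in W330R, a log2 difference of −0.07 ± 0.37. The model shares 1 estimate of spread per gene across all stages, so standard errors here are wider than these replicates alone would give.

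At day 2 the heavy chains separated. WT libraries held 8.16 and 26.7 CPM of H2-K1 and W330R libraries 160 and 163 CPM. The difference was 9.18-fold (log2 3.20 ± 0.77, adjusted p = 0.039). H2-D1 was at 12.5 and 28.2 CPM in WT and 201 and 174 CPM in W330R, 9.14-fold apart (log2 3.19 ± 0.61, adjusted p = 0.0139). H2-K1 and H2-D1 were the 2 members called at day 2, where 3.06% of genes were called. Both calls were lost when any 1 of the 4 libraries was left out, while the log2 difference stayed between 2.60 and 4.32 for H2-K1 and between 2.73 and 3.91 for H2-D1. B2m, at 209 and 326 CPM in WT and 749 and 557 CPM in W330R, missed the threshold at this single stage (log2 1.29 ± 0.38, adjusted p = 0.0825).

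Through days 4 and 6 W330R stayed above WT, and the gap narrowed in size without a test of that narrowing passing. At day 4 H2-K1 was at 11.3 and 32.9 CPM in WT and 131 and 99.1 CPM in W330R (log2 2.37 ± 0.74, adjusted p = 0.0733). H2-D1, at 17.3 and 37.2 CPM in WT and 187 and 121 CPM in W330R, was the single member called (5.65-fold, log2 2.50 ± 0.59, adjusted p = 0.0274), against 6.14% of genes, and lost that call whenever 1 library was left out. At day 6 WT reached 20.3 and 48.5 CPM of H2-K1 against 121 and 141 CPM in W330R (log2 1.93 ± 0.73, adjusted p = 0.128). H2-D1 at day 6 was at 26.9 and 63.0 CPM in WT and 138 and 158 CPM in W330R (log2 1.72 ± 0.57, adjusted p = 0.0858). No member was called at day 6 by edgeR, where 7.54% of genes were; 4 had an unadjusted p under 0.05, and DESeq2 called 2. The genotypes did not overlap: the lowest W330R library of days 2 to 6 exceeded the highest WT library for H2-K1 (99.1 against 48.5 CPM), H2-D1 (121 against 63 CPM) and B2m (557 against 544 CPM). These 3 of 10 members compare with 2.73% of all tested genes.

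Whether the W330R difference at days 2 to 6 exceeded that in undifferentiated cells was tested as an interaction. H2-D1 was called (log2 2.46 ± 0.70, adjusted p = 0.0496), the single member of 10, where 6.74% of genes were called. H2-K1 gave a value of similar size that missed the threshold (log2 2.73 ± 0.89, adjusted p = 0.0872). Tap2 moved the other way without being called (log2 −1.12 ± 0.34, adjusted p = 0.0635). The H2-D1 call sits at the threshold and was lost in 13 of 16 fits with 1 library left out, over which its log2 value ran from 2.29 to 2.72.

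**Figure D2:**
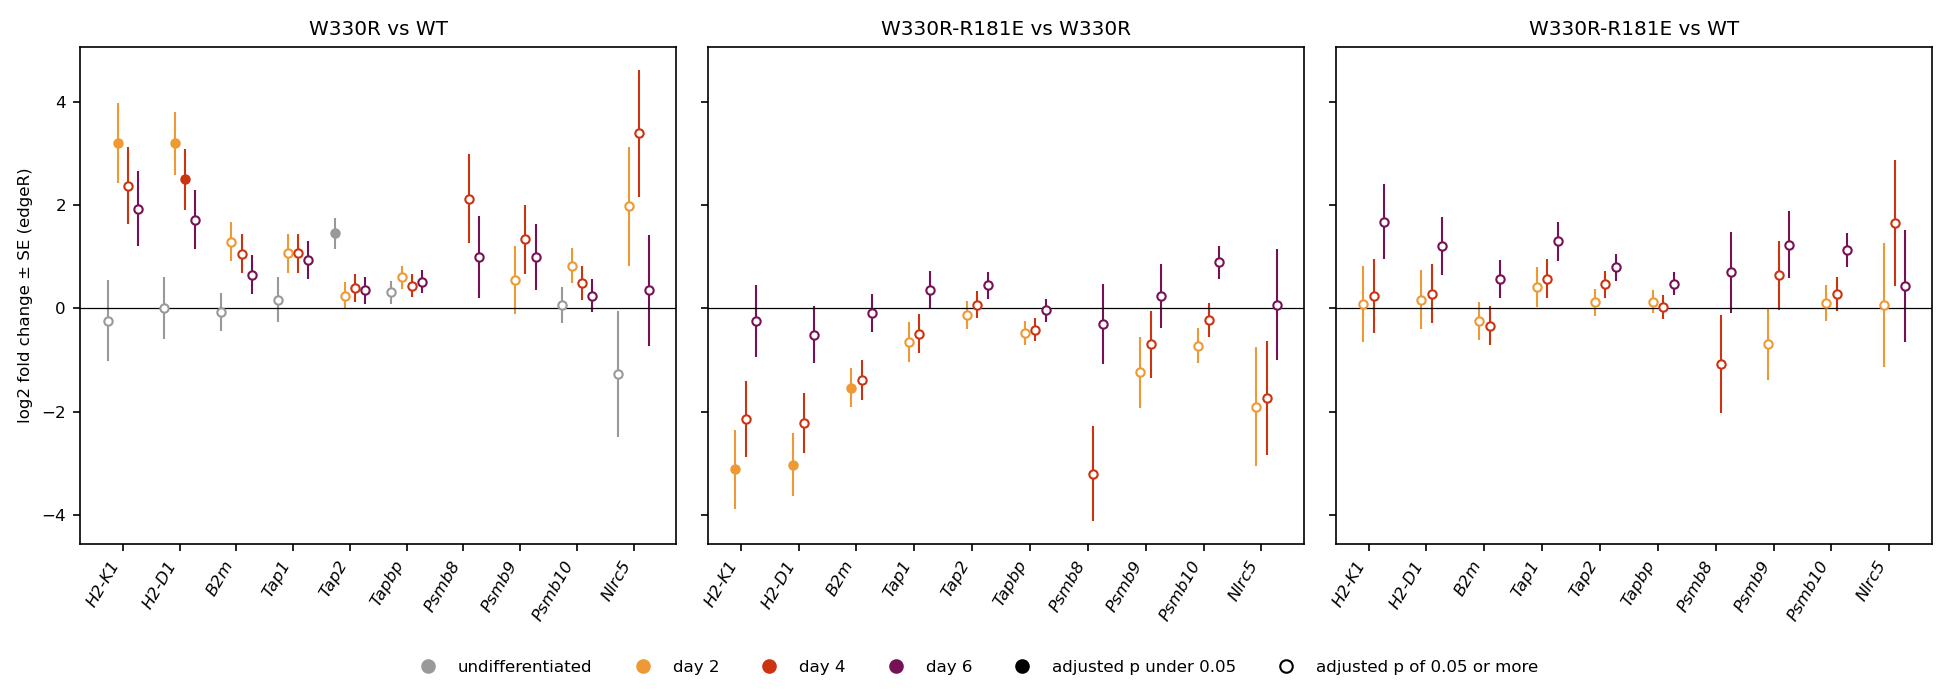
Fitted log2 fold change with its standard error (bars) for each member and stage in 3 comparisons between genotypes, with filled symbols for an adjusted p under 0.05; values with a condition at the counting floor are left out. The H2-K1 difference at day 2 is 3.20 in W330R against WT and −3.11 in the double mutant against W330R, and no symbol is filled in the double mutant against WT.

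The transporter and tapasin showed smaller differences than the heavy chains. Tap1, the first transporter subunit, was 1.75-fold higher in W330R over the 4 stages (log2 0.81 ± 0.20, adjusted p = 0.00947). At days 2, 4 and 6 it was at 11.6 and 9.49, 18.1 and 12.7, and 20.5 and 18.4 CPM in WT. In W330R it was at 19.7 and 24.3, 38.7 and 25.7, and 37.9 and 36.6 CPM on the same days. Within each day both W330R libraries lay above both WT libraries, though 1 W330R library of day 2 (19.7 CPM) lay within the WT range of day 6. Undifferentiated cells of both genotypes held 3.96 to 4.86 CPM.

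Tap2, the second transporter subunit, was the one member called between WT and W330R before differentiation. It was at 5.02 and 4.85 CPM in WT and 12.7 and 14.3 CPM in W330R, 2.73-fold apart (log2 1.45 ± 0.30, adjusted p = 0.03), against 1.75% of genes called at this stage. Leaving out any 1 of the 4 libraries removed the call. Both W330R libraries also lay above both WT libraries at this stage for Tap1 (4.41 and 4.86 against 3.96 and 4.23 CPM) and Tapbp (45.5 and 48.5 against 40.2 and 35.5 CPM), and neither was called. At days 2 and 6 the genotypes overlapped, with 31.6 and 34.0 CPM in WT and 27.7 and 49.9 CPM in W330R at day 2. By day 6 WT held 84.5 and 86.2 CPM and W330R 86.0 and 132 CPM. Its call over the 4 stages (1.53-fold, log2 0.61 ± 0.14, adjusted p = 0.00632) rested on the undifferentiated cells, since over days 2 to 6 the log2 difference was 0.33 ± 0.15 (adjusted p = 0.119).

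Tapbp, which bridges transporter and heavy chain, was 1.38-fold higher in W330R (log2 0.47 ± 0.11, adjusted p = 0.00967). WT libraries of days 2 to 6 ran from 26.5 to 62.1 CPM with replicates as far apart as 62.1 and 38.5 CPM at day 6. W330R libraries ran from 42.0 to 77.0 CPM, so the ranges overlapped.

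The immunoproteasome genes were sparse, and their levels carry large counting error. Psmb8, the inducible counterpart of Psmb5, had no counts in either WT library at day 2 and stood at 0.374 and 0.799 CPM in W330R, at least 3.14-fold higher when the WT level is set to 3 counts per library. At day 4 it was at 0.289 and 0.915 CPM in WT and 3.31 and 2.15 CPM in W330R. At day 6 it was at 0.624 and 2.19 CPM in WT and 3.15 and 2.51 CPM in W330R. Within each of these days both W330R libraries exceeded both WT libraries. Over the 4 stages Psmb8 was not called, and the fit gave no usable estimate (standard error 3129 on the log2 scale). Undifferentiated W330R cells and WT cells at day 2 held no counts of it. Over days 2 to 6, a window chosen after seeing the data, it was called (adjusted p = 0.00639), with WT at day 2 still without counts. Psmb9, the counterpart of Psmb6, had WT libraries of 0.906 to 3.01 CPM and W330R libraries of 2.09 to 6.37 CPM over days 2 to 6. It was not called there (log2 0.96 ± 0.38, adjusted p = 0.0722). Over the 4 stages it was not called (adjusted p = 0.0597) and is given no fold, with undifferentiated cells at the counting floor. Psmb10, the counterpart of Psmb7, was not called either (over 4 stages log2 0.41 ± 0.17, adjusted p = 0.0941), with WT libraries of 2.07 to 8.85 CPM and W330R libraries of 4.11 to 10.2 CPM.

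Each immunoproteasome subunit was also set against the constitutive subunit it replaces, as the percent of that subunit's counts. These percents are not corrected for transcript length and are compared between libraries only. Psmb8 at day 6 was 0.524 and 1.85% of Psmb5 in WT, 3.31 and 2.89% in W330R, and 3.13 and 0.568% in the double mutant. Psmb9 at day 6 was 2.13 and 3.24% of Psmb6 in WT, 4.14 and 7.34% in W330R, and 7.73 and 4.69% in the double mutant. Psmb10 at day 6 was 4.39 and 4.46% of Psmb7 in WT, 6.58 and 9.13% in W330R, and 19.8 and 6.31% in the double mutant. All 3 shares were higher in W330R than in WT at day 6.

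Exact two-sided permutation tests exchanged libraries within stages, on the log2 ratio with 0.5 counts added to each gene. Where a condition has at most 3 counts of the immunoproteasome subunit in each library, that ratio is set by the added counts and the depth, so only stages at which neither condition was that low are used here, a choice made after seeing the data, with adjustment over 9 tests. Psmb9 over Psmb6 was higher in W330R than in WT by a log2 of 0.95 at days 2 to 6 (3 of 3 stages, exact p = 0.00926, the smallest these permutations can give, adjusted p = 0.0417). Psmb10 over Psmb7 was higher by 0.76 (4 of 4 stages, exact p = 0.00463, adjusted p = 0.0417). Psmb8 over Psmb5 was usable at days 4 and 6, where it differed by 2.19 in 2 of 2 stages (exact p = 0.0556, the smallest that 36 permutations allow, so this test cannot pass the threshold). Psmb5 and Psmb7 were themselves lower in W330R (Psmb5 log2 −0.39, adjusted p = 0.0346; Psmb7 log2 −0.36, adjusted p = 0.03), so part of each ratio lies in its denominator. Psmb6 was not called (log2 −0.03, adjusted p = 0.903).

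Between double mutant and W330R no ratio passed. The Psmb8 ratio differed by −2.41 at days 4 and 6 (exact p = 0.111), the Psmb9 ratio by −0.73 (exact p = 0.12) and the Psmb10 ratio by −0.19 (exact p = 0.611). Without replicate 1 of day 6 these differences were −2.99 (exact p = 0.0556), −0.85 (exact p = 0.0648) and −0.46 (exact p = 0.037), with no adjustment. Between double mutant and WT the Psmb10 ratio differed by 0.76 (exact p = 0.0278, adjusted p = 0.0834), and by 0.49 without that library. The Psmb8 and Psmb9 ratios differed from WT by −0.22 (exact p = 0.889) and 0.22 (exact p = 0.602), and without that library by −0.81 and 0.10.

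**Figure D3:**
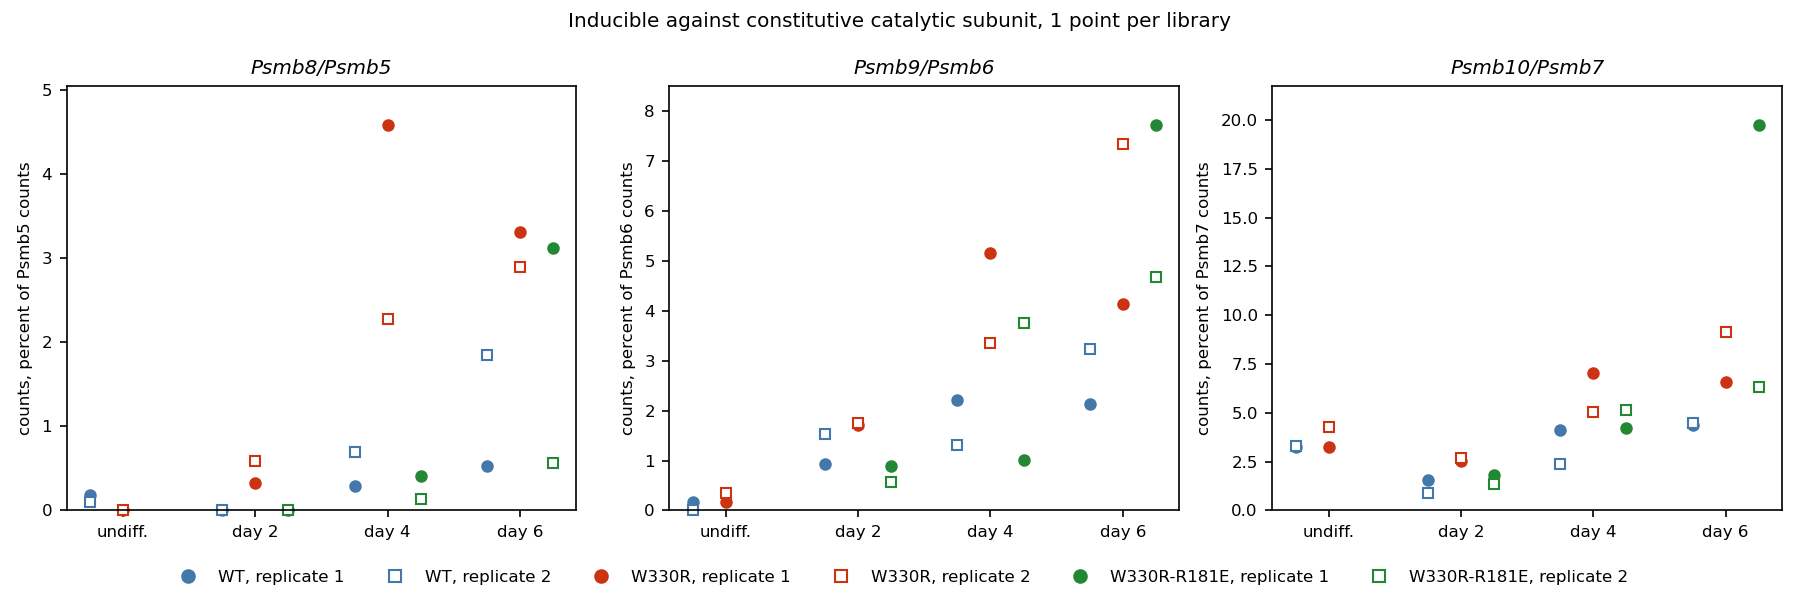
Percent of the replaced constitutive subunit's counts for Psmb8, Psmb9 and Psmb10 in each library (points) by stage and genotype. In W330R at day 6 the Psmb10 share is 6.58 and 9.13% of Psmb7 against 4.39 and 4.46% in WT, and replicate 1 of the double mutant reaches 19.8%.

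Nlrc5, the transactivator, was sparse and uneven between replicates. In undifferentiated cells it was at 2.73 and 1.25 CPM in WT and 0.898 and 0.694 CPM in W330R. At day 4 W330R held 8.65 and 2.78 CPM against 0.289 and 0.754 CPM in WT (log2 3.39 ± 1.23, adjusted p = 0.113). At day 6 WT held 0 and 4.28 CPM and W330R 1.38 and 4.19 CPM, so the genotypes overlapped. Over days 2 to 6 it was called higher in W330R (log2 1.91 ± 0.66, adjusted p = 0.044), and over the 4 stages it was not (log2 1.11 ± 0.58, adjusted p = 0.188).

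The second comparison asked what the added R181E substitution does to W330R cells over days 2 to 6. Double mutant cells held less heavy chain and B2m RNA than W330R cells. Of the 10 members 4 were called, all lower, where 17.2% of genes were called; the members' median log2 fold change was −0.783 against 0.012 over all tested genes. Without replicate 1 of day 6, 6 were called, all lower, where 16.2% of 14998 tested genes were, and the median was −0.939. H2-K1 was 3.56-fold lower (log2 −1.83 ± 0.42, adjusted p = 0.00852). H2-D1 was 3.78-fold lower (log2 −1.92 ± 0.33, adjusted p = 0.00152). B2m was 2.00-fold lower (standard error 0.22 on the log2 scale, adjusted p = 0.0061). Psmb8, the fourth member called, had an adjusted p of 0.00909 and is given no fold, since neither double mutant library of day 2 held a count. Without that replicate the log2 difference was −2.20 for H2-K1 (adjusted p = 0.00592), −2.18 for H2-D1 (adjusted p = 0.00176) and −1.08 for B2m (adjusted p = 0.00982).

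By day, the double mutant held 8.87 and 28.0 CPM of H2-K1 at day 2, 12.6 and 39.5 CPM at day 4 and 168 and 50.9 CPM at day 6. H2-D1 was at 15.3 and 30.5 CPM, 17.8 and 48.4 CPM, and 146 and 60.5 CPM. B2m was at 163 and 288 CPM, 218 and 356 CPM, and 701 and 516 CPM. At days 2 and 4 every double mutant library lay below the lowest W330R library for these 3 genes, and at day 6 replicate 1 alone reached the W330R range. At day 2, 3 members were called against W330R, where 2.67% of genes were: H2-K1 8.66-fold lower (log2 −3.11 ± 0.77, adjusted p = 0.0448), H2-D1 8.13-fold lower (log2 −3.02 ± 0.60, adjusted p = 0.0163) and B2m 2.90-fold lower (log2 −1.54 ± 0.38, adjusted p = 0.0466). Without W330R replicate 1 or double mutant replicate 1 the day 2 count was 0, without W330R replicate 2 it was 1, and without double mutant replicate 2 it was 3. At day 4 no member was called by edgeR, against 1.91% of genes, with 4 members at an unadjusted p under 0.05 and 3 called by DESeq2. Day 4 log2 values were −2.14 for H2-K1, −2.22 for H2-D1 and −1.39 for B2m. At day 6 no member was called by edgeR or DESeq2, against 1.5% of genes by edgeR, and 1 had an unadjusted p under 0.05; H2-K1 differed by a log2 of −0.25 ± 0.70, and by −1.37 without replicate 1 of the double mutant.

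Over days 2 and 4 alone, a choice made after replicate 1 of day 6 was seen to stand apart, the same 4 members were called against W330R, where 9.7% of genes were. H2-K1 was then 6.17-fold lower (log2 −2.63 ± 0.53, adjusted p = 0.00665), H2-D1 6.15-fold lower (log2 −2.62 ± 0.42, adjusted p = 0.00151) and B2m 2.75-fold lower (log2 −1.46 ± 0.27, adjusted p = 0.00374). In this window all 4 W330R libraries exceeded all 4 double mutant libraries for 5 of the 10 members, against 5.21% of all genes. For H2-K1 the nearest pair was 99.1 and 39.5 CPM, for H2-D1 121 and 48.4 CPM and for B2m 557 and 356 CPM. Tapbp (42.0 and 41.9 CPM) and Nlrc5 (2.67 and 1.91 CPM) separated by less.

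For the transporter and tapasin the outcome over days 2 to 6 turned on that 1 library. Tap1 differed by a log2 of −0.26 (adjusted p = 0.463) with all libraries and was called without replicate 1 of day 6 (−0.63, adjusted p = 0.00719). Tapbp differed by −0.31 (adjusted p = 0.124) with all libraries and was called without it (−0.41, adjusted p = 0.0451). Tap2 was not called either way, at 0.13 (adjusted p = 0.633) and −0.018 (adjusted p = 0.972), with 37.0 and 34.2 CPM in the double mutant at day 2 and 77.6 and 77.7 CPM at day 4. The sparse members Psmb9, Psmb10 and Nlrc5 were also not called either way. Psmb9 differed by −0.56 (adjusted p = 0.351) and, without that library, −0.80 (adjusted p = 0.214). Psmb10 differed by −0.02 (adjusted p = 0.978) and −0.27 (adjusted p = 0.25). Nlrc5 differed by −1.19 ± 0.64 (adjusted p = 0.229) and −1.36 (adjusted p = 0.244).

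The third comparison set the double mutant against WT over days 2 to 6. It shares its libraries with the other comparisons, so its values are read beside theirs. One member of 10 was called by edgeR, Tap1 (1.70-fold higher, log2 0.76 ± 0.22, adjusted p = 0.0436). With 9.57% of genes called, that share is at the background. The members' median log2 fold change was 0.482 against 0.004 over all tested genes, and 3 members had an unadjusted p under 0.05. Without replicate 1 of day 6 that median was 0.269 against −0.009. The Tap1 call was lost in 9 of 12 fits with 1 library left out, and without replicate 1 of day 6 the log2 value was 0.39 (adjusted p = 0.111). H2-K1 differed by a log2 of 0.67 ± 0.42 (adjusted p = 0.322), H2-D1 by 0.55 ± 0.33 (adjusted p = 0.297) and B2m by −0.004 ± 0.215. Tap2 differed by 0.46 ± 0.15 (adjusted p = 0.0713), Psmb10 by 0.50 ± 0.19 (adjusted p = 0.11) and Tapbp by 0.21 ± 0.13 (adjusted p = 0.319). Psmb9 differed by 0.40 ± 0.39 (adjusted p = 0.549) and Nlrc5 by 0.71 ± 0.67 (adjusted p = 0.533). Psmb8 was not called and is given no fold, since neither genotype held a count at day 2. Without that library no member was called by edgeR, where 4.26% of genes were, 2 had an unadjusted p under 0.05, and the values were 0.29 for H2-K1, 0.29 for H2-D1 and −0.08 for B2m. Over days 2 and 4 alone no member was called, where 1.64% of genes were, and the log2 difference was 0.16 ± 0.51 for H2-K1 and 0.23 ± 0.41 for H2-D1. By single day no member was called by edgeR at day 2 (0% of genes), day 4 (0%) or day 6 (0.875%). Members with an unadjusted p under 0.05 numbered 0, 0 and 4 on those days, and DESeq2 called 0, 0 and 2. At day 6 H2-K1 differed by 1.68 ± 0.72, and by 0.56 without replicate 1 of the double mutant.

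Over time, B2m was lower and the transporter higher in WT cells at day 2 than before differentiation. This step cannot be told apart from a difference in preparation or sequencing, which the column headings neither state nor exclude. From undifferentiated cells to day 2, 5 of 10 members were called in WT, where 50.9% of genes were, a share at the background. The members' median log2 fold change was 0.097 against 0.059 over all tested genes. B2m fell 2.69-fold (log2 −1.43 ± 0.38, adjusted p = 0.00626), and Psmb10 fell as well (log2 −0.98 ± 0.34, adjusted p = 0.0284). Tap2 rose by a log2 of 2.73 ± 0.30 (adjusted p = 5.41e-06) and Tap1 by 1.36 ± 0.41 (adjusted p = 0.0126). Psmb9 rose at least 7.47-fold from a level at the counting floor. The WT count was 3 without either undifferentiated library or day 2 replicate 1. In W330R over the same step 6 members were called, all higher, where 48.2% of genes were. H2-K1 rose 16.1-fold (log2 4.01 ± 0.82, adjusted p = 0.00112), H2-D1 13.7-fold (log2 3.78 ± 0.64, adjusted p = 0.000266), Tap1 by a log2 of 2.25 ± 0.41 and Tap2 by 1.53 ± 0.28. Psmb8 and Psmb9 rose at least 1.98-fold and 7.44-fold from the floor. B2m in W330R changed by a log2 of −0.07 and was not called.

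From day 2 to day 6, Tap2, Tapbp and Psmb10 were called higher in each genotype. In WT 4 members were called, where 26.6% of genes were: Tap2 (log2 1.38 ± 0.27), Tapbp (0.79 ± 0.23), Psmb10 (1.71 ± 0.34) and Psmb8, which rose at least 7.51-fold from the floor. The WT count was 2 without day 2 replicate 2. In W330R 3 were called, where 25% of genes were: Tap2 (1.49 ± 0.27), Tapbp (0.70 ± 0.23) and Psmb10 (1.13 ± 0.33). The W330R count was 1 without either day 2 library or day 6 replicate 2. H2-K1 and H2-D1 in W330R differed by −0.30 and −0.34 over this interval and were not called. In the double mutant 9 were called higher, where 23.2% of genes were, all but Nlrc5. H2-K1 rose by a log2 of 2.56 ± 0.75, B2m by 1.43 ± 0.38 and Psmb10 by 2.74 ± 0.35. Without replicate 1 of day 6 the count was 4, with H2-K1 at 1.45 (adjusted p = 0.264), B2m at 1.20 (adjusted p = 0.101) and Psmb10 at 1.97 (adjusted p = 0.0014). The change from day 2 to day 6 was not separated between genotypes: for W330R minus WT 0 members were called (0.0895% of genes; 1 member at an unadjusted p under 0.05, and 0 by DESeq2), and for the double mutant minus W330R 0 were called by edgeR (0% of genes; 5 members at an unadjusted p under 0.05, and 0 by DESeq2).

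Other genes of the pathway were read from lists whose members exclude the 10 genes above. List counts are read against the share of all tested genes called: 22.9% for W330R against WT, 17.2% for double mutant against W330R (16.2% without replicate 1 of day 6) and 9.57% for double mutant against WT (4.26% without it). Of 15 further class I heavy chain and class I-like genes tested, 8 were higher and 0 lower in W330R than in WT over the 4 stages (median log2 1.33), and with W330R as the reference the double mutant had 10 lower and 0 higher (median −1.03, and 10 lower with a median of −1.18 without replicate 1 of day 6). None was called between double mutant and WT by edgeR, with or without it. Several of these genes, H2-Q1 and H2-Q4 among them, share 31-base words with H2-K1 and H2-D1. Reads may have been divided among them, so these counts need not be of independent genes. H2-Q4, a nonclassical heavy chain that shares sequence with H2-K1, was 3.76-fold higher in W330R (log2 1.91 ± 0.28, adjusted p = 0.000562) and lower in the double mutant (log2 −1.97 ± 0.31, adjusted p = 0.000771). H2-M3, which presents formylated peptides, gave a log2 of 1.52 ± 0.22 in W330R (adjusted p = 0.000506), and H2-Q1 one of 1.75 ± 0.40 (adjusted p = 0.00726).

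Chaperones and trimming enzymes split in direction. Of 8 tested, 2 were higher in W330R, Tapbpl (log2 0.46, adjusted p = 0.0319), a tapasin relative that edits peptides, and Erap1 (log2 0.39, adjusted p = 0.0185), the peptidase that trims them. A pair was lower, Hspa5 (log2 −0.49, adjusted p = 0.000473) and Calr (log2 −0.44, adjusted p = 0.00992), both chaperones of the endoplasmic reticulum. Against W330R the double mutant was higher for 2 and lower for 1 of the 8, and against WT none was called, both unchanged in number without replicate 1 of day 6. Among 19 constitutive proteasome and PA28 genes 0 were higher and 5 lower in W330R, or 26.3% against 22.9% of all genes, a share near the background; one was Psme3 (log2 −0.56, adjusted p = 0.00269), a nuclear proteasome activator. The double mutant had 2 higher against W330R (10.5%) and 2 higher and 1 lower against WT (15.8%), and without replicate 1 of day 6 none was called by edgeR against W330R (6 at an unadjusted p under 0.05) and 2 were higher against WT. The interferon-inducible activator subunits Psme1 (log2 0.10, adjusted p = 0.592) and Psme2 (log2 0.14, adjusted p = 0.317) were not called.

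Among 23 tested regulators of class I transcription, 6 were higher and 3 lower in W330R than in WT, which is 39.1% of the list. The double mutant had 4 lower against W330R (17.4%) and 1 higher and 1 lower against WT (8.7%), shares at the background, and without replicate 1 of day 6 it had 6 lower against W330R and none called by edgeR against WT (3 at an unadjusted p under 0.05). Irf1, which binds the IRF element, was 1.64-fold higher in W330R (log2 0.71 ± 0.11, adjusted p = 0.000805) and lower in the double mutant (log2 −0.55, adjusted p = 0.00913). Stat2 (log2 1.04, adjusted p = 0.017) and Irf9 (log2 1.07, adjusted p = 0.0299), partners in interferon signalling, were higher in W330R. Of 24 tested interferon-stimulated genes 19 were higher and 0 lower in W330R (79.2%, median log2 2.60), led by Oas2 (log2 5.50), Oasl2 (log2 4.52) and Oas1a (log2 4.12). Counts for the double mutant turned on the library that stood apart. With it 8 were lower against W330R (median −1.78) and 1 was higher against WT (median 1.66). Without it 20 were lower against W330R (median −3.13) and 0 were called against WT by edgeR (median 0.31, 1 gene at an unadjusted p under 0.05). By day, with all libraries, the median difference from WT was 0.047, 0.56 and 4.37 at days 2, 4 and 6, and that from W330R was −4.02, −2.99 and 1.78. The day 6 medians include the library that stood apart and are not given without it. Its sum was 2922 CPM, against 229 CPM in replicate 2, 160 and 172 CPM in WT and 672 and 375 CPM in W330R.

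Library by library, the summed level of the interferon-stimulated genes moved with the heavy chains in some pairs of replicates and apart from them in others. In W330R at days 2, 4 and 6 the sum was 674, 1328 and 672 CPM in replicate 1 and 214, 303 and 375 CPM in replicate 2. Replicate 1 over replicate 2 was thus 3.14, 4.38 and 1.79 for the sum, against 0.982, 1.32 and 0.856 for H2-K1 and 1.15, 1.54 and 0.874 for H2-D1. In the double mutant at days 2, 4 and 6 the same ratio was 0.891, 1.08 and 12.7 for the sum, 0.317, 0.319 and 3.31 for H2-K1 and 0.5, 0.368 and 2.41 for H2-D1. At day 6 all 3 were thus higher in replicate 1. In WT at days 2, 4 and 6 it was 0.912, 1 and 0.93 for the sum and 0.306, 0.345 and 0.417 for H2-K1. WT libraries of days 2 to 6 summed to between 71.1 and 172 CPM, all below the lowest W330R library at 214 CPM. In undifferentiated cells the sum was 294 and 295 CPM in WT and 296 and 281 CPM in W330R, above every differentiated WT library, at 9.83 to 12.2 CPM of H2-K1. The make-up of the sum differed between stages, so its size does not compare the same genes. Undifferentiated WT replicate 1 held 68.4 CPM of Ifit2, 64.8 of Irgm1 and 17.1 of Bst2. W330R replicate 2 of day 2 held 3.50, 26.0 and 52.0 CPM of these. The part of these genes in the class I difference was not tested.

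**Figure D4:**
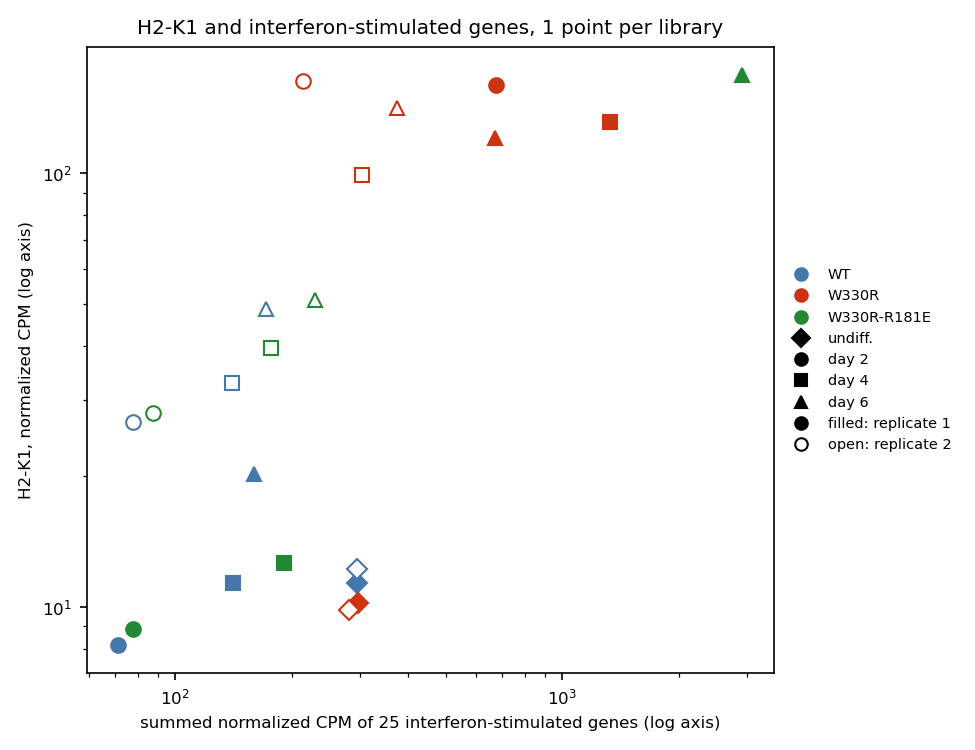
H2-K1 against the summed level of 25 interferon-stimulated genes in each of the 22 libraries, both in normalised CPM on log axes, with colour for genotype, shape for stage and filled symbols for replicate 1. Undifferentiated libraries hold 281 to 296 CPM of the sum at 9.83 to 12.2 CPM of H2-K1, whereas replicate 2 of W330R at day 2 holds 214 CPM of the sum at 163 CPM of H2-K1. Which genes make up most of the sum differs between these stages.

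Markers of other cells were checked beside these values. The 7 immune cell markers in the table summed to between 0.394 and 4.16 CPM over all 22 libraries, Tyrobp was at 0 in each, and Cd3e was at 0 in all but 1. Of 2 immune markers that passed the filter, 0 were called between W330R and WT by edgeR; the double mutant exceeded both other genotypes for 1, Lyz2, which without replicate 1 of day 6 was called against W330R only. Of 3 tested MHC class II genes, 0 were called in any of the 3 averaged comparisons, and the class II list summed to between 8.41 and 33.5 CPM. Adipocyte markers summed to between 51.5 and 59.6 CPM before differentiation. Over days 2 to 6 they reached 2880 to 9230 CPM in WT, 1440 to 2530 CPM in W330R and 1700 to 4350 CPM in the double mutant. Of 8 adipocyte markers 4 were lower and 0 higher in W330R than in WT (50%), and the double mutant had 4 higher and 1 lower against W330R (62.5%) and 4 lower against WT (50%). Without replicate 1 of day 6 the double mutant counts were 5 higher and 1 lower, and 3 lower. Of 8 mesenchymal markers 4 were higher in W330R than in WT, and the double mutant had 4 lower against W330R and 1 higher against WT, or 4 and 0 without replicate 1 of day 6. Adipocyte marker levels thus moved with genotype in the same libraries as the class I genes, and their part in the result was not tested.

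The members were also compared with one another by Pearson's r over libraries, on log2 CPM, as a description; libraries share genotype, stage and depth. H2-K1 and H2-D1 ran together with r = 0.993 over 22 libraries and 0.992 over the 18 libraries of days 2 to 6, with the shared sequence described above. H2-K1 and B2m gave 0.541 over 22 libraries and 0.947 over 18, since undifferentiated cells combine high B2m with low heavy chain. B2m and Tap2 gave −0.158 over 22 libraries and 0.43 over 18. Against the mean standardised level of the 10 members, the 5 other genes with the highest r over 22 libraries were H2-Q4 (0.951), Gbp2 (0.926), F830016B08Rik (0.902), Gbp5 (0.901) and Phactr1 (0.901). Over the 18 libraries they were Parp14 (0.962), Tor3a (0.952), Igtp (0.944), H2-Q4 (0.938) and Gbp2 (0.935). Gbp2 and Igtp belong to the listed interferon-stimulated genes, and H2-Q4 shares sequence with H2-K1 and H2-D1.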

How the data were processed

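RNA-seq was analysed for 22 libraries of 10T cells (total RNA, NEBNext Ultra II). The authors deposited whole-number estimated counts per gene; the submitters' processing notes name kallisto, DESeq2 1.40 and GRCm39, and no further setting is given in the sources used here. Column headings spell the second substitution of the double mutant with another residue than the labels, which were followed. Reads were divided among paralogs before deposit, which can shift counts between class I genes.

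Counts were filtered with edgeR's filterByExpr (minimum count 10, minimum total 15), scaled by TMM and fitted with edgeR 4.0.16 (quasi-likelihood, R 4.3.3, limma 3.58.1) over all 22 libraries with 1 mean per condition. P-values were adjusted over 14520 genes (Benjamini-Hochberg, threshold 0.05). CPM are edgeR's normalised counts (cpm function, TMM-scaled library sizes). Counting floors were 3 counts per library and cover counting error only. Proteasome ratios added 0.5 counts to each gene and used exact permutation within stage; the design had set these tests over all shared stages, and the restriction to stages above the floor was chosen after seeing the data. All 10 members are named in each main comparison; of other lists, up to 3 called genes with the largest change and a mean log2 CPM of at least 1, plus Psmb5, Psmb6, Psmb7 and Irf1; some genes of these lists are not reported here by name. Further genes (Erap1, Psme1, Psme2, Lyz2, Tyrobp, Cd3e) were named after their values were seen. Members and lists were chosen with earlier results of these data known. Lists covered class I-like, peptide loading, constitutive proteasome, regulator, interferon-stimulated, class II, immune, mesenchymal and adipocyte genes; H2-L and Adgre1 were not analysed here. Alternatives were DESeq2 1.42.0, RLE scaling, no filter, contrast-only fits, a replicate block, 5 counts added in ratios, and leaving out each library; the restrictions to days 2 to 6 and days 2 and 4 were chosen after seeing the data. The script was tested on simulated data. Promoter sequence was read from RefSeq (GRCm38.p6), and shared 31-base words and overlaps from GENCODE annotation of GRCm38, another build than that named by the submitters; no coordinate was carried between builds.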

Additional observations from a re-analysis of the deposited data

Results flagged for a closer look

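The H2-D1 difference between W330R and WT was larger over days 2 to 6 than in undifferentiated cells, by a log2 of 2.46 ± 0.70 in a test of the difference itself (edgeR interaction term, adjusted p = 0.0496). H2-D1 was at 13.6 and 13.6 CPM in WT and 13.7 and 13.7 CPM in W330R before differentiation, and all 6 W330R libraries of days 2 to 6 (121 to 201 CPM) lay above all 6 WT libraries (12.5 to 63 CPM). The call was lost in 13 of 16 fits that left out 1 library and under RLE scaling. Column headings do not say whether undifferentiated libraries were prepared or sequenced separately, and such a difference cannot be told apart from the stage.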

How the results depend on the processing

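Over the 4 stages 6 members were called between W330R and WT with each single library left out, 7 without WT undifferentiated replicate 1 or WT day 6 replicate 2, and 6 to 8 under the other alternatives; between double mutant and W330R 4 were called under each alternative, and 6 without double mutant day 6 replicate 1. Each per-day comparison rests on 2 libraries a group, and Psmb8, Psmb9 and Nlrc5 on few counts, which limits what single days can show. The cause of the changes below was not tested.

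With DESeq2 2 members were called between double mutant and WT over days 2 to 6, 4, 4 and 2 between W330R and WT at days 2, 4 and 6, 3 between double mutant and W330R at day 4, 2 between double mutant and WT at day 6, and 3 in the interaction with differentiation. With no filter on low counts the corresponding counts that moved were 2 for double mutant against WT over days 2 to 6, 4, 2 and 2 for W330R against WT at days 2, 4 and 6, 3 for double mutant against W330R at day 4 and 2 in the interaction. Fitting only the conditions of each contrast left 0 for double mutant against WT over days 2 to 6, 2 for W330R against WT in undifferentiated cells, 0 and 0 at days 2 and 4, 0 for double mutant against W330R at day 2, 2, 6 and 0 from day 2 to day 6 in WT, W330R and double mutant, and 2 in the interaction. RLE scaling left 0 in the interaction. Over days 2 and 4 only, 0 were called between double mutant and WT. Values near 0 changed sign: Tap2 became −0.031 (double mutant against W330R) and Psmb9 −0.023 (double mutant against WT) over days 2 and 4; B2m in double mutant against WT became 0.01 with no filter and 0.002 with only the conditions of the contrast; H2-D1 in undifferentiated cells became −0.023 with no filter; and B2m in W330R from day 2 to day 6 became 0.004 with DESeq2 and RLE scaling.

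Replicate numbers were not taken to pair the libraries in the main model. Deviations of same-numbered libraries correlated at over 0.1 in 27 of 55 pairs of conditions (median 0.088, lowest −0.066, highest 0.534). Between WT and double mutant, replicates 1 and replicates 2 correlated at 0.9717 and 0.9808 at day 2, against 0.9667 within WT and 0.9564 within the double mutant. At day 4 these values were 0.9715 and 0.9744 against 0.9687 and 0.9713. At day 6 they were 0.97 and 0.9609 against 0.972 and 0.9633. What same-numbered libraries share was not tested. A replicate block gave 6, 4 and 1 members in the 3 averaged comparisons, as without it. It gave 2 and 1 for W330R against WT at days 4 and 6, 2 for double mutant against W330R at day 4 and 2 in the interaction, and B2m in double mutant against WT became 0.012.

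With 1 library left out, a condition keeps 1 library, which is assumed to vary like the others. Members called then numbered 0 to 3 for double mutant against WT over days 2 to 6, 0 at each of the undifferentiated, day 2 and day 4 stages and 0 to 1 at day 6 for W330R against WT, 0 to 3 for double mutant against W330R at day 2, 0 to 2 for double mutant against WT at day 6, 3 to 4 and 2 to 5 for WT entering and passing through differentiation, 1 to 2 and 4 to 9 from day 2 to day 6 in W330R and double mutant, and 0 to 2 in the interaction. Log2 values that crossed 0 were the following. For double mutant against W330R over days 2 to 6, Tap2 ran from −0.018 to 0.29 and Psmb10 from −0.27 to 0.14. For double mutant against WT over days 2 to 6, B2m ran from −0.15 to 0.19 and Psmb9 from −0.044 to 0.65. For W330R against WT, Psmb10 ran from −0.088 to 0.21 (undifferentiated), Tap2 from −0.25 to 0.60 (day 2) and Nlrc5 from −0.64 to 0.99 (day 6). For double mutant against W330R, Tap2 ran from −0.49 to 0.36 at day 2 and from −0.053 to 0.17 at day 4, and at day 6 H2-K1 ran from −1.37 to 0.36, B2m from −0.33 to 0.12, Tap1 from −0.76 to 0.96, Tapbp from −0.36 to 0.21, Psmb8 from −2.11 to 0.38, Psmb9 from −0.46 to 0.68 and Nlrc5 from −0.56 to 1.05. For double mutant against WT at day 2, H2-K1 ran from −0.99 to 1.18, H2-D1 from −0.42 to 0.87, B2m from −0.71 to 0.11, Psmb9 from −1.14 to 0.037, Psmb10 from −0.094 to 0.31 and Nlrc5 from −0.82 to 0.55. At day 4, H2-K1 ran from −0.81 to 1.24, H2-D1 from −0.60 to 0.98, B2m from −0.71 to 0.069, Tapbp from −0.19 to 0.34, Psmb8 from −1.78 to 0.038 and Psmb9 from −0.69 to 1.32. At day 6, Psmb8 ran from −1.12 to 1.89 and Nlrc5 from −0.56 to 0.74. From undifferentiated cells to day 2, H2-K1 ran from −0.55 to 1.18 and H2-D1 from −0.13 to 1.06 in WT, and B2m from −0.29 to 0.14 in W330R. From day 2 to day 6 in W330R, B2m ran from −0.21 to 0.22 and Nlrc5 from −1.29 to 0.32. In the difference of that change, W330R minus WT, Tap1 ran from −0.27 to 0.042, Tap2 from −0.25 to 0.60, Tapbp from −0.41 to 0.30 and Psmb9 from −0.30 to 0.90, and in double mutant minus W330R Tap1 ran from −0.11 to 1.61. Proteasome ratios over all shared stages, where Psmb8 and Psmb9 values without counts are set by the added 0.5 counts, gave for W330R against WT 2.08 (Psmb8), 1.27 (Psmb9) and 0.76 (Psmb10), and −3.13 (Psmb8) for double mutant against W330R. Restricted to stages above the floor, the Psmb8 values became 2.19 and −2.41 and no longer passed. With 1 library left out the ratios over all shared stages ran, for W330R against WT, from 1.86 to 2.30 (Psmb8), 0.85 to 1.70 (Psmb9) and 0.66 to 0.86 (Psmb10). In double mutant against W330R they ran from −3.52 to −2.74 (Psmb8) and from −0.46 to 0.087 (Psmb10), and against WT from −0.55 to 0.23 (Psmb8), −0.091 to 0.52 (Psmb9) and 0.49 to 1.04 (Psmb10).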
